A study of Caenorhabditis elegans with 9 samples.

Results

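The mitochondrial respiratory chain and ATP synthase were represented on the arrays by 47 nuclear genes, out of 17118 genes that had a probe set of their own. The genes were taken by symbol: those named nuo, nduf, ucr, cox, atp, asb or asg, together with sdha-1, sdha-2, sdhb-1, mev-1, sdhd-1, gas-1, isp-1, cyc-1, cyc-2.1 and lpd-5. Of these 47 genes, 13 encode subunits of complex I, 5 of complex II, 6 of complex III, 7 of complex IV and 9 of complex V, 1 encodes cytochrome c, and 6 encode assembly factors of complex IV, which the symbol cox also covers. The annotation holds 4 further genes of these names, ucr-11, cox-14, nuo-3 and cox-16, which had no probe set of their own. The rule also named nduo and ctb-1, for subunits encoded by the mitochondrial genome, and no probe set of a single gene matched them. Such subunits are therefore not among the 47 genes.

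The samples were total RNA from fed Caenorhabditis elegans at L4, the last larval stage, 20 animals per array, with 3 arrays each for the wild type, the ogt-1(ok430) mutant and the oga-1(ok1207) mutant. The ogt-1 gene encodes the transferase that puts the sugar O-GlcNAc onto nuclear, cytoplasmic and some mitochondrial proteins, and oga-1 encodes the enzyme that removes it, so the strains carry opposite lesions of 1 cycle. Each mutant is a single deletion allele in the whole animal, and the RNA came from all tissues together, so fewer cells of a type and less RNA per cell cannot be told apart. All values are log2 probe set signals, a difference of 1 being a 2-fold change.

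Complexes I to IV pass electrons from NADH and succinate through ubiquinone and cytochrome c to oxygen and, apart from complex II, pump protons across the inner mitochondrial membrane. Complex V, the ATP synthase, lets the protons flow back through its membrane part and makes ATP in its catalytic head. In C. elegans, reduced function of some of these subunits, such as isp-1 and nuo-6, lengthens life, whereas mutants of gas-1 and mev-1 are short-lived and sensitive to oxidative stress or anaesthetics.

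Array means were equal at 5.91 and medians lay between 5.21 and 5.30. The SD of the signals was above 1.8 on ogt-1 array 3 (1.835) and on oga-1 arrays 1 (1.853) and 3 (1.839). The stronger ogt-1 probe set averaged 7.90 in the wild type and 7.03 in the mutant, a fall of 0.87 (limma adjusted p = 8.9e-05). The 3 oga-1 probe sets were dim in every strain, and none was called lower in oga-1 mutants: the strongest differed by -0.32 (limma adjusted p = 0.22). Whether their probes lie inside the deleted stretch was not tested, so they do not check that label. The standard error of a difference between strains ran from 0.08 to 0.18 over the 47 genes, with a median of 0.10. Of the 47 genes, 42 stood in the top quartile of probe sets by mean signal, and the other 5 were assembly factors of complex IV, so comparison values are given both over all probe sets and over that quartile.

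Against the wild type, 20 of the 47 respiratory chain genes fell in ogt-1 mutants, 25 were not called and 2 rose, mev-1 of complex II and atp-3 of complex V, at a limma adjusted p under 0.05 taken over all 22548 probe sets. The falls made up 42.6% of the genes, where 9.15% of all probe sets and 24.7% of those in the top quartile of signal were called lower. For rises the shares were 8.1% and 18.5%. Calls in either direction covered 17.3% of all probe sets and 43.3% of the top quartile. The median difference over the 47 genes was -0.32, against -0.02 over all probe sets and -0.12 over the top quartile. Of the 47 differences 40 were below 0, where 12548 of all 22548 probe sets and 3403 of 5637 in the top quartile were. No fall reached 2-fold: the differences ran from -0.97 for nuo-6 to 0.50 for mev-1. All 3 ogt-1 arrays lay below all 3 wild-type arrays for 26 genes, and above them for 3, where 18.8% and 14.3% of all probe sets and 35.4% and 22.8% of the top quartile did so.

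**Figure D1:**
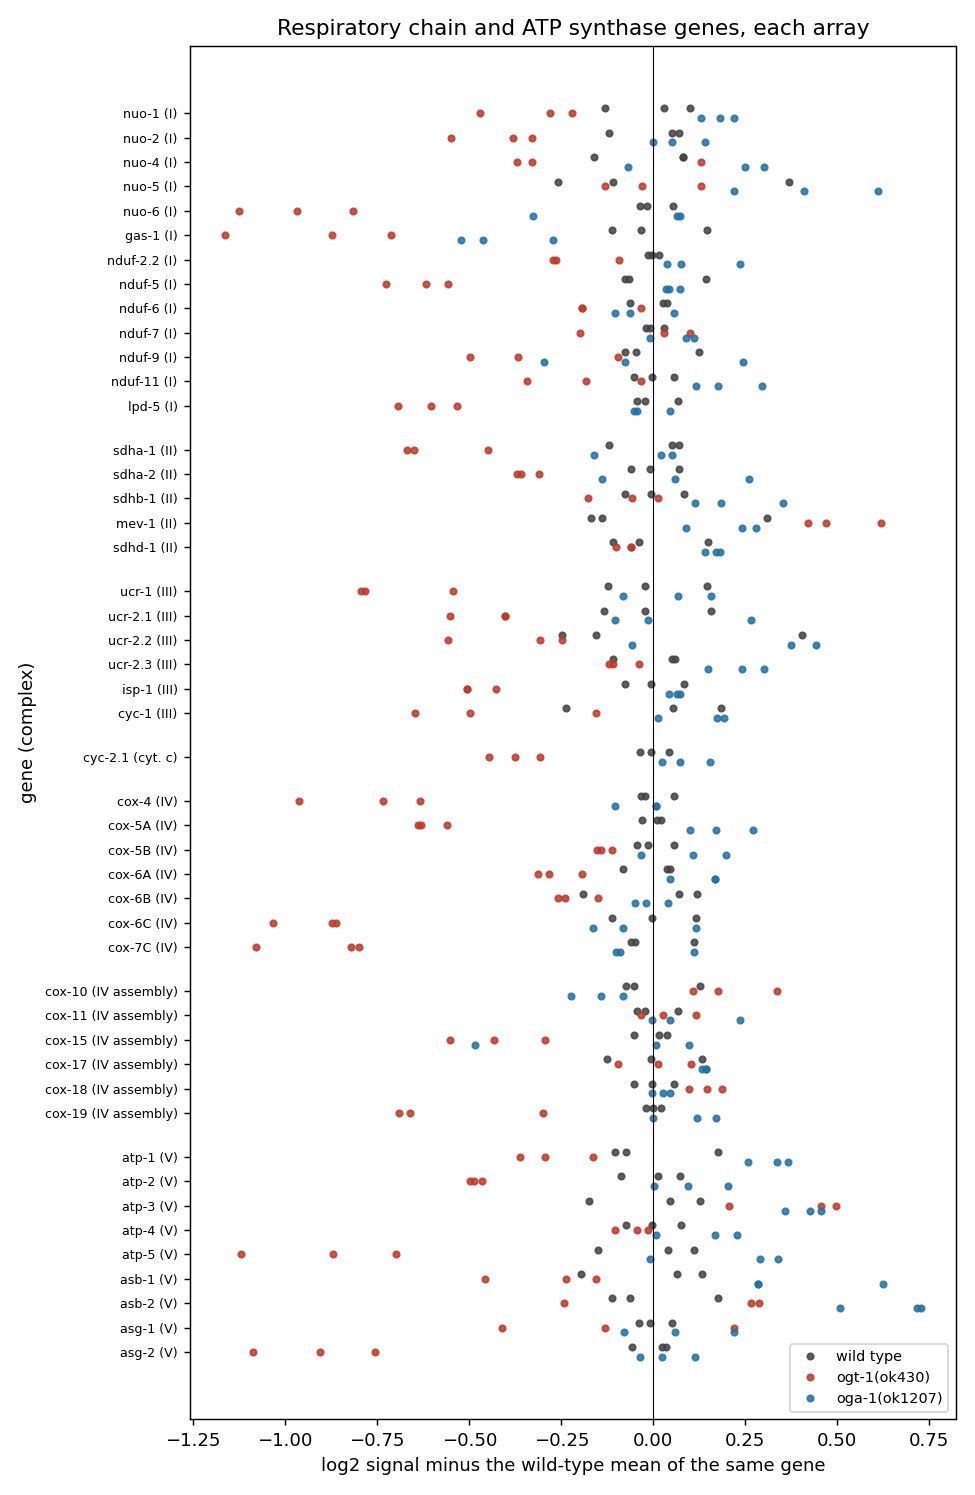
Each row is 1 of the 47 genes, grouped by complex, and each point is 1 array, drawn as its log2 signal minus the wild-type mean of that gene (3 arrays per strain). The ogt-1 points lie to the left of 0 for most rows of complexes I, III and IV, while those of mev-1 and atp-3 lie to the right; the oga-1 points scatter closer to 0.

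Control probe sets and markers of other tissues were measured on the same arrays, and some moved with these falls. The actin control, the 3' minus 5' signal of its probe sets, averaged 4.77 ± 0.05 (SD, n = 3) over wild-type arrays and 4.04 ± 0.12 (SD, n = 3) over ogt-1 arrays. By an exact two-sided permutation test p was 0.1, and 3 arrays against 3 can give no smaller value. Over oga-1 arrays it averaged 4.20 ± 0.26 (SD, n = 3; exact p = 0.1 against the wild type). The Gapdh control, taken the same way, averaged 3.24 ± 0.10 (SD, n = 3) over wild-type arrays and 2.87 ± 0.13 (SD, n = 3) over ogt-1 arrays (exact p = 0.1). Over oga-1 arrays Gapdh averaged 3.12 ± 0.16 (SD, n = 3; exact p = 0.2 against the wild type). The hybridisation controls averaged 9.11 ± 0.09 (SD, n = 3) over wild-type arrays and 9.38 ± 0.12 (SD, n = 3) over ogt-1 arrays, with the same exact p of 0.1, and 9.14 ± 0.11 (SD, n = 3) over oga-1 arrays (exact p = 0.6). Of 14 germline and oocyte markers, 9 fell in ogt-1 mutants and 0 rose. Their mean signal ran from 9.39 to 9.67 on the ogt-1 arrays, from 9.94 to 10.11 on the wild-type arrays and from 10.10 to 10.22 on the oga-1 arrays. Muscle markers were called higher in 2 and lower in 2 of 15, with means of 8.94 to 9.18 against 9.06 to 9.39 in the wild type. For 10 intestine markers, 2 rose and 3 fell, with means of 9.55 to 9.70 against 9.51 to 9.79. Sperm markers rose in 2 of 14 and fell in 0, with means of 12.66 to 12.69 against 12.30 to 12.60. The part of these measures in the respiratory chain values was not tested. With the actin measure as a covariate, which separates the wild type from both mutants, only cox-6C kept its call (limma adjusted p = 0.037), while the median difference over the 47 genes was -0.38.

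In complex I, the NADH dehydrogenase through which most electrons enter the chain, 6 of 13 genes fell in ogt-1 mutants, 0 rose and all 13 differences were below 0, with a median of -0.32. The gene nuo-6 encodes an accessory subunit of the NDUFB4 type. It read 9.52, 9.54 and 9.61 on the wild-type arrays, 8.59, 8.43 and 8.74 on the ogt-1 arrays and 9.62, 9.23 and 9.63 on the oga-1 arrays. All 3 ogt-1 values lay far below the other 6, which overlapped each other. The gene fell 1.96-fold, a difference of -0.97 (standard error 0.12; limma adjusted p = 2.3e-04).

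The gene gas-1, which encodes a subunit of complex I, was lower in both mutants by value. Its signals were 9.89, 10.15 and 9.97 in the wild type, 9.29, 8.84 and 9.13 in ogt-1 mutants and 9.73, 9.48 and 9.54 in oga-1 mutants. The strains formed 3 ranges that did not overlap, with oga-1 in the middle. The fall in ogt-1 mutants was called (-0.91, standard error 0.12, limma adjusted p = 3.9e-04), and the difference of -0.42 in oga-1 mutants was not (limma adjusted p = 0.17). A second gas-1 probe set differed by -0.60 in ogt-1 mutants (limma adjusted p = 0.0061) but by -0.01 in oga-1 mutants, so the middle position of oga-1 rests on 1 probe set.

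Both lpd-5, an accessory subunit of the NDUFS4 type, and nduf-5 fell by similar amounts. For lpd-5 the arrays gave 9.53, 9.55 and 9.64 in the wild type, 9.04, 8.97 and 8.88 in ogt-1 mutants and 9.62, 9.53 and 9.52 in oga-1 mutants. For nduf-5 they gave 8.74, 8.73 and 8.95, then 8.08, 8.19 and 8.25, then 8.88, 8.84 and 8.85 in the same order of strains. In each gene the wild-type and oga-1 arrays shared 1 range and the ogt-1 arrays lay beneath it. The differences from the wild type were -0.61 for lpd-5 (limma adjusted p = 4.9e-04) and -0.63 for nduf-5 (limma adjusted p = 6.2e-04).

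The other falls in complex I were those of nuo-2, a core subunit of the NDUFS3 type (-0.42, limma adjusted p = 0.010), and nuo-1, the flavin-binding subunit that takes the electrons from NADH (-0.32, limma adjusted p = 0.042). Both were less secure. Without ogt-1 array 2 the adjusted p of nuo-2 was 0.053. The call of nuo-1 ended when any of 6 arrays was left out (arrays 1 and 2 of the wild type, 2 and 3 of ogt-1, 1 and 3 of oga-1), with adjusted p-values of 0.053 to 0.18. The 7 genes not called, nuo-4, nuo-5, nduf-2.2, nduf-6, nduf-7, nduf-9 and nduf-11, differed by -0.32 to -0.01. Probe sets of 1 gene did not always give the same answer here: a second nuo-4 probe set differed by -0.52 (limma adjusted p = 0.012) where the main one differed by -0.19, and a second nduf-11 probe set by -0.52 (limma adjusted p = 0.0013), also beside -0.19. The iron-sulfur core subunit nduf-7 was at -0.02, but its weaker probe set was called higher, at 0.33 (limma adjusted p = 0.043).

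Complex II, succinate dehydrogenase, belongs to both the citric acid cycle and the chain, and its 5 genes did not move as a block. In ogt-1 mutants 2 fell and 1 rose, with a median of -0.07. The flavoprotein gene sdha-1, which encodes the subunit that oxidises succinate, read 7.76, 7.57 and 7.74 in the wild type, 7.24, 7.02 and 7.04 in ogt-1 mutants and 7.53, 7.71 and 7.74 in oga-1 mutants. The ogt-1 arrays stood apart below the other 6; the difference was -0.59 (limma adjusted p = 0.0017). A second, dim sdha-1 probe set, averaging 5.12 in the wild type, differed by 0.05 and was not called.

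The gene mev-1, the cytochrome b subunit that anchors complex II in the membrane, was the member that rose most. It read 8.82, 8.85 and 9.30 in the wild type, 9.46, 9.41 and 9.61 in ogt-1 mutants and 9.27, 9.08 and 9.23 in oga-1 mutants. The ogt-1 arrays lay above all others, while 1 wild-type array reached the level of the oga-1 arrays. It rose by 0.50 (standard error 0.13; limma adjusted p = 0.019). Leaving out wild-type array 1, wild-type array 2 and ogt-1 array 3 in turn ended the call (limma adjusted p = 0.082, 0.086 and 0.068). The iron-sulfur subunit sdhb-1 and the other membrane anchor, sdhd-1, each differed by -0.07 and were not called.

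In complex III, which moves electrons from ubiquinol to cytochrome c, 3 of 6 genes fell in ogt-1 mutants and all 6 differences were below 0, with a median of -0.44. Core protein 1, ucr-1, read 10.12, 10.02 and 10.29 in the wild type, 9.36, 9.60 and 9.35 in ogt-1 mutants and 10.30, 10.06 and 10.21 in oga-1 mutants. The gap between the ogt-1 arrays and the other 6 was wider than the spread within any strain, and the difference was -0.71 (limma adjusted p = 8.0e-04).

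The Rieske iron-sulfur protein isp-1, the site of a long-lived mutant, fell too. Its signals were 11.72, 11.79 and 11.88 in the wild type, 11.29, 11.29 and 11.37 in ogt-1 mutants and 11.84, 11.86 and 11.87 in oga-1 mutants. The ogt-1 arrays formed a range of their own below the rest. The fall was 0.48 (difference -0.48, standard error 0.08; limma adjusted p = 0.0017), and its second probe set differed by -0.55 (limma adjusted p = 0.029). Cytochrome c1, cyc-1, read 9.05, 9.18 and 8.76, then 8.35, 8.5 and 8.84, then 9.17, 9.01 and 9.19 in the same order. Its ogt-1 and wild-type arrays overlapped, because ogt-1 array 3 lay above wild-type array 3. The difference of -0.43 was not called (limma adjusted p = 0.054). Without ogt-1 array 3 the limma adjusted p was 0.015, and without wild-type array 3 it was 0.023. A second cyc-1 probe set differed by -0.12 and was not called (limma adjusted p = 0.57).

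Complex IV, cytochrome c oxidase, which hands the electrons to oxygen, had the lowest median of the 5 complexes in ogt-1 mutants, at -0.61. That median was the value of cox-5A, whose second probe set differed by -0.10 and was not called. Whether the order of the complexes holds by other probe sets was not tested. Of its 7 structural subunits 4 fell, 0 rose, and 6 had ogt-1 arrays entirely below the wild-type arrays. The gene cox-6C read 10, 10.11 and 10.23 in the wild type, 9.24, 9.25 and 9.08 in ogt-1 mutants and 10.03, 9.95 and 10.23 in oga-1 mutants. For cox-7C the values were 9.97, 10.13 and 9.96, then 9.2, 8.94 and 9.22, then 9.93, 9.92 and 10.13. Both small subunits read lower on every ogt-1 array than on any wild-type array, and wild type and oga-1 could not be separated. The differences of the ogt-1 means from the wild type were -0.93 (limma adjusted p = 1.1e-04) and -0.90 (limma adjusted p = 1.6e-04).

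The subunits cox-4 and cox-5A, which contact the catalytic core, fell as well. The cox-4 signals were 10.88, 10.89 and 10.97 in the wild type, 10.28, 9.95 and 10.18 in ogt-1 mutants and 10.92, 10.92 and 10.81 in oga-1 mutants. Those of cox-5A were 9.71, 9.76 and 9.75, then 9.11, 9.1 and 9.18, then 9.91, 9.84 and 10.01. The differences in ogt-1 mutants were -0.78 (limma adjusted p = 2.7e-04) and -0.61 (limma adjusted p = 4.1e-04), but a second cox-5A probe set differed by -0.10 and was not called. The subunits cox-5B, cox-6A and cox-6B differed by -0.27 to -0.14 and were not called. In cox-6A the probe set of highest signal missed the threshold (-0.27, limma adjusted p = 0.057), while its other probe sets were called at -0.50 and -0.35.

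The 6 assembly factors of complex IV, which insert heme A and copper or help place subunits, had a median of 0.02 in ogt-1 mutants, and 1 fell. That was cox-19, a protein tied to copper delivery, with 6.35, 6.33 and 6.31 in the wild type, 5.64, 5.67 and 6.03 in ogt-1 mutants and 6.45, 6.33 and 6.50 in oga-1 mutants. Its ogt-1 arrays did not reach the others, though array 3 came closer than the rest (-0.55, limma adjusted p = 0.0046). The heme A synthesis factor cox-15 differed by -0.43 and was not called (limma adjusted p = 0.055); without oga-1 array 2 the adjusted p was 0.0079 and without oga-1 array 3 it was 0.042. The others, cox-10, cox-11, cox-17 and cox-18, differed by 0.00 to 0.20. Mean signals of the assembly factors ran from 4.81 to 6.75, and those of the structural subunits from 9.60 to 12.19.

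In complex V, the ATP synthase, 3 of 9 genes fell in ogt-1 mutants and 1 rose, with a median of -0.27. The gene asg-2, a subunit g of the membrane part, read 9.65, 9.73 and 9.74 in the wild type, 8.80, 8.95 and 8.62 in ogt-1 mutants and 9.67, 9.73 and 9.82 in oga-1 mutants. It had the smallest p of the 47 genes in this comparison (-0.91, standard error 0.10, limma adjusted p = 8.8e-05).

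The subunit d gene atp-5, part of the stalk that holds the catalytic head, read 11.13, 10.94 and 11.20, then 9.97, 10.22 and 10.39, then 11.38, 11.08 and 11.43. Every ogt-1 array lay below the lowest wild-type array by this probe set, and the difference was -0.89 (limma adjusted p = 6.1e-04). Its other probe sets gave smaller values, -0.55 (limma adjusted p = 0.0055) and -0.30 (not called, limma adjusted p = 0.080). The catalytic beta subunit atp-2 read 11.63, 11.53 and 11.69, then 11.13, 11.15 and 11.12, then 11.82, 11.62 and 11.71 (-0.49, limma adjusted p = 0.0025).

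In contrast, atp-3, which encodes the OSCP subunit joining the stalk to the head, was higher in both mutants by value. It read 8.66, 8.88 and 8.96 in the wild type, 9.04, 9.33 and 9.29 in ogt-1 mutants and 9.29, 9.19 and 9.26 in oga-1 mutants. The wild-type arrays lay below all 6 mutant arrays, and the mutants overlapped. The rise in ogt-1 mutants was called (0.39, limma adjusted p = 0.026), but it missed the threshold when wild-type array 1 or 2 was left out (limma adjusted p = 0.12 and 0.060) and when ogt-1 array 2 or 3 was (0.11 and 0.081). The difference of 0.42 in oga-1 mutants was not called (limma adjusted p = 0.13). The remaining genes, atp-1, atp-4, asb-1, asb-2 and asg-1, differed by -0.28 to 0.10 in ogt-1 mutants and were not called.

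**Figure D2:**
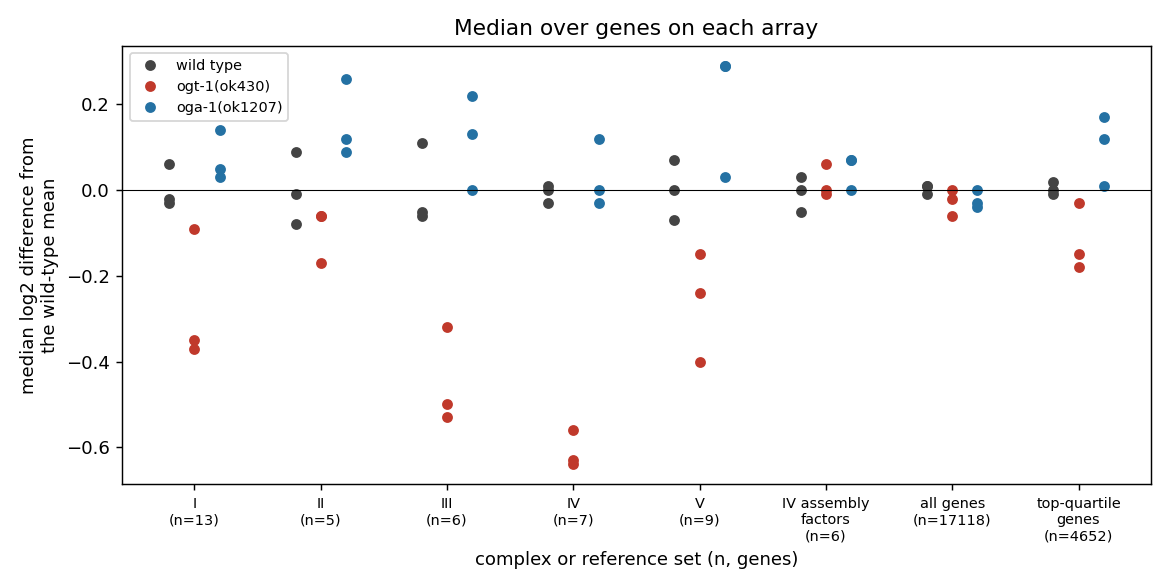
For each complex, the assembly factors of complex IV and the reference sets, each point is the median over genes, on 1 array, of the log2 signal minus the wild-type mean of the gene (3 arrays per strain; n is the number of genes). On the ogt-1 arrays the median of complex IV lay between -0.64 and -0.56 and that of complex III between -0.53 and -0.32, against -0.18 to -0.03 for genes in the top quartile of signal.

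Cytochrome c, the mobile carrier between complexes III and IV, is encoded by the paralogs cyc-2.1 and cyc-2.2, of which the symbol rule takes in only cyc-2.1. They changed in opposite directions. The cyc-2.1 signals were 12.28, 12.20 and 12.23 in the wild type, 11.86, 11.79 and 11.93 in ogt-1 mutants and 12.31, 12.26 and 12.39 in oga-1 mutants. For cyc-2.2 they were 9.77, 10.25 and 10.29, then 10.95, 10.72 and 10.71, then 9.96, 9.92 and 10.30. In ogt-1 mutants cyc-2.1 fell by 0.38 (limma adjusted p = 0.0088), and cyc-2.2 rose by 0.69 (limma adjusted p = 0.0071). The ratio of cyc-2.1 to cyc-2.2 was thus lower by 1.06 in ogt-1 mutants than in the wild type, with no overlap of the arrays (exact permutation p = 0.1, two-sided, and 0.30 after Benjamini-Hochberg adjustment over 24 tests of 8 paralog pairs in 3 comparisons).

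Other paralogs of the chain were compared in the same way. In 5 of the 8 pairs the ratios on ogt-1 arrays did not overlap those on wild-type arrays. None gave an exact permutation p below 0.1. Such gaps were seen in 1 pair for oga-1 against the wild type and in 2 between the mutants. How often other gene pairs show such gaps was not computed, so the 5 pairs have no reference share. For single probe sets of the top quartile, ogt-1 arrays lay wholly below the wild type in 35.4% and wholly above in 22.8%. The ATP synthase pair asg-1 and asg-2 was unequal: asg-1 read 9.67, 9.58 and 9.61 in the wild type, 9.49, 9.21 and 9.84 in ogt-1 mutants and 9.84, 9.54 and 9.68 in oga-1 mutants, with overlapping strains, beside the fall of asg-2. Their ratio shifted by 0.81 in ogt-1 mutants. The complex I pair gas-1 and nduf-2.2 shifted by -0.70 in ogt-1 mutants and by -0.54 in oga-1 mutants. With the second gas-1 probe set, a choice added after seeing the data, the shifts were -0.39 and -0.13, and the oga-1 arrays then overlapped the wild type. The paralog nduf-2.2 read 8.59, 8.62 and 8.60 in the wild type, 8.33, 8.34 and 8.51 in ogt-1 mutants and 8.84, 8.64 and 8.68 in oga-1 mutants, and was not called in either mutant.

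The flavoprotein paralog sdha-2 followed sdha-1 at a smaller size, so that their ratio shifted by -0.24. It read 7.73, 7.68 and 7.81 in the wild type, 7.43, 7.37 and 7.38 in ogt-1 mutants and 8.0, 7.60 and 7.80 in oga-1 mutants. Its difference of -0.35 was barely called (limma adjusted p = 0.041) and lost the call without any 1 of 7 arrays, all but oga-1 arrays 1 and 2, with adjusted p-values of 0.055 to 0.12. Among the core protein 2 genes of complex III, ucr-2.1 fell (-0.45, limma adjusted p = 0.019; 0.081 without ogt-1 array 2 and 0.074 without wild-type array 3), while ucr-2.2 (-0.37) and ucr-2.3 (-0.09) were not called. The ucr-2.1 arrays read 8.52, 8.41 and 8.70, then 8.14, 7.99 and 8.14, then 8.81, 8.53 and 8.44.

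For ucr-2.2 the arrays gave 9.01, 9.1 and 9.66, then 8.70, 8.95 and 9.01, then 9.70, 9.2 and 9.63. For ucr-2.3 they gave 7.95, 8.12 and 8.11, then 8.02, 7.95 and 7.94, then 8.36, 8.21 and 8.30. In both, ogt-1 and wild-type arrays overlapped, and a second ucr-2.2 probe set differed by 0.05. Ratios within the core protein 2 family shifted without overlap only between ucr-2.1 and ucr-2.3 (-0.36). How far probe sets of near-identical copies read each other's transcripts was not tested; of the 47 probe sets, 21 carry the suffix s and 3 the suffix x, which mark probes shared between transcripts.

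**Figure D3:**
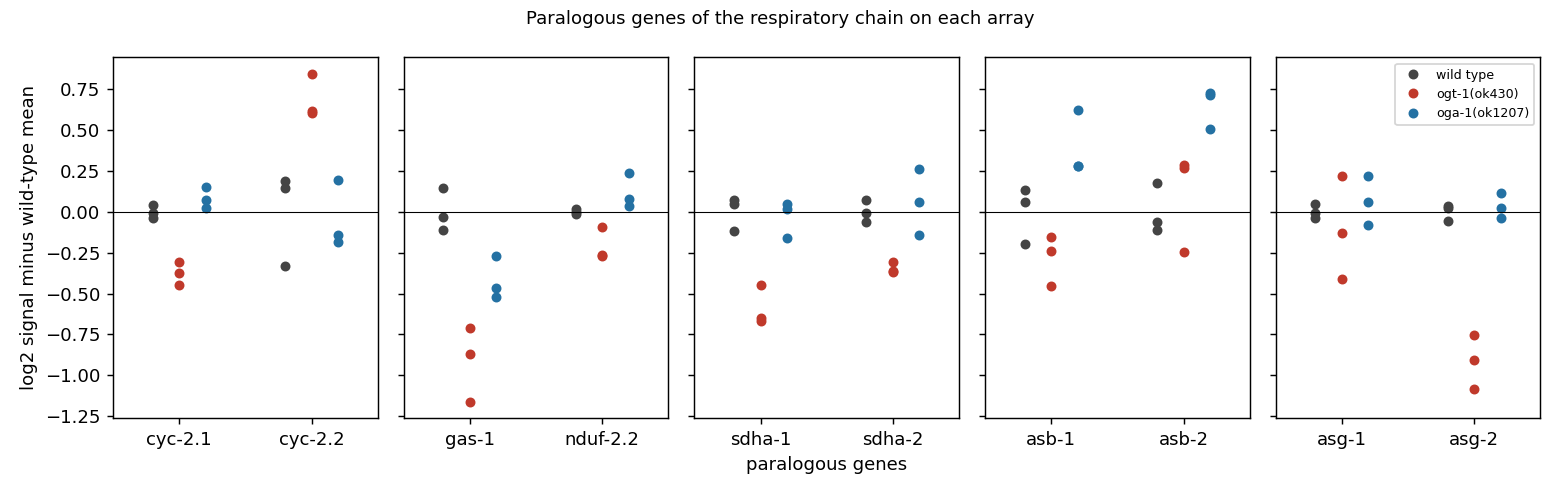
Each panel shows 1 pair of paralogous genes, each point being the log2 signal of 1 array minus the wild-type mean of that gene (3 arrays per strain). In ogt-1 mutants cyc-2.2 lies above and cyc-2.1 below the wild type, and asg-2 and gas-1 lie lower than their paralogs asg-1 and nduf-2.2.

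In oga-1 mutants no gene of the respiratory chain passed the test. None of 47 was called by limma, where 0.257% of all probe sets were called (0.191% higher, 0.0665% lower) and 0.639% of the top quartile (0.497% higher, 0.142% lower). At an unadjusted p under 0.05, 7 were higher and 1 was lower, where 7.89% and 6.79% of all probe sets and 18.7% and 4.86% of the top quartile were. The median difference was 0.09, the same as the median of 0.09 over the top quartile of signal, and the smallest adjusted p was 0.095. That was the value of asb-2, the b subunit of the ATP synthase used in somatic tissue, which read 7.48, 7.53 and 7.77 in the wild type, 7.35, 7.88 and 7.86 in ogt-1 mutants and 8.32, 8.10 and 8.31 in oga-1 mutants. All 3 oga-1 arrays lay above the other 6, by a mean of 0.65 over the wild type; without ogt-1 array 1 in the fit the adjusted p was 0.033.

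The germline b subunit asb-1 read 8.12, 7.79 and 8.05 in the wild type, 7.75, 7.53 and 7.83 in ogt-1 mutants and 8.61, 8.27 and 8.27 in oga-1 mutants. It too was highest in oga-1 arrays, by 0.40 over the wild type, and was not called (limma adjusted p = 0.19). All 9 complex V differences in oga-1 mutants were above 0, from 0.04 to 0.65, with a median of 0.21. By comparison complexes I, II, III and IV had medians of 0.06, 0.16, 0.09 and -0.01. In the top quartile of signal 1788 of 5637 probe sets were below 0. Measured from the wild-type mean, the complex V median was 0.29, 0.03 and 0.29 on oga-1 arrays 1, 2 and 3. For genes in the top quartile of signal it was 0.17, 0.01 and 0.12 on the same arrays. The oga-1 arrays lay wholly above the wild-type arrays for 11 of 47 genes and wholly below for 2, where 9.53% and 11% of all probe sets and 20.4% and 5.16% of the top quartile did so.

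The direct comparison of the mutants showed more genes apart than either comparison with the wild type. Between ogt-1 and oga-1 mutants, 30 of 47 genes were lower in ogt-1 mutants and 1 was higher, at a limma adjusted p under 0.05. These falls were 63.8% of the genes, against 14.2% of all probe sets and 37.1% of the top quartile. Called higher were 9.63% and 17.8%, and called either way 23.9% and 55%. The ogt-1 arrays lay wholly below the oga-1 arrays for 36 genes and wholly above for 3, where 19.1% and 16.5% of all probe sets and 42.5% and 20.6% of the top quartile did so. The median difference was -0.46, against 0.01 over all probe sets and -0.22 over the top quartile. All 3 comparisons share arrays in pairs, so their counts are not independent. The largest difference was that of atp-5, -1.1 or 2.15-fold (limma adjusted p = 1.2e-04), followed by asg-2 at -0.95 (limma adjusted p = 5.5e-05) and nuo-6 at -0.91 (limma adjusted p = 2.8e-04). The other atp-5 probe sets differed by less, -0.37 and -0.70, and were called too (limma adjusted p = 0.027 and 9.2e-04). In complex III all 6 genes were lower in ogt-1 than in oga-1 mutants, from -0.76 for ucr-1 to -0.32 for ucr-2.3. However, ucr-2.2 and ucr-2.3 lost the call without single mutant arrays (limma adjusted p-values of 0.053 to 0.093). By their second probe sets cyc-1 differed by -0.07 and ucr-2.2 by -0.26, neither called (limma adjusted p = 0.72 and 0.27). The second isp-1 probe set was called, at -0.71 (limma adjusted p = 0.0057).

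Complex V was lower in 6 of 9 genes in this comparison, among them the catalytic alpha subunit atp-1 and both b subunits. The atp-1 arrays read 11.75, 11.78 and 12.03 in the wild type, 11.49, 11.69 and 11.56 in ogt-1 mutants and 12.22, 12.11 and 12.19 in oga-1 mutants, so that the wild type lay between the mutants without overlap. The differences from the wild type, -0.27 and 0.32, were not called, whereas that between the mutants was (-0.59, limma adjusted p = 0.0012). Likewise asb-1 differed by -0.68 between the mutants (limma adjusted p = 0.0023) and asb-2 by -0.54 (limma adjusted p = 0.015; 0.056 and 0.051 without oga-1 array 1 or 3).

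Complex I was lower in 8 of 13 genes, complex II in 3 of 5 and complex IV in 5 of 7. Of these, gas-1, nduf-2.2 and nduf-11 of complex I and sdha-2 and sdhb-1 of complex II lost the call when single arrays were left out, with adjusted p-values of 0.051 to 0.18. By second probe sets sdha-1 (-0.17), sdhb-1 (-0.27) and cox-5A (-0.15) were not called (limma adjusted p = 0.24, 0.062 and 0.24). Other probe sets of gas-1, nduf-11 and cox-6A were called lower too. Second probe sets of nuo-4 and nduf-9, whose main ones were not called, were called lower, and that of nduf-7 was called higher. The heme A synthesis factor cox-10 was the gene called higher in ogt-1 than in oga-1 mutants (0.35, limma adjusted p = 0.020), with dim signals of 5.21, 5.37 and 5.14 against 4.81, 4.89 and 4.95, and 5.16, 4.96 and 4.98 in the wild type. It lost the call without ogt-1 array 2 or oga-1 array 1 (limma adjusted p = 0.094 and 0.075). Rises in ogt-1 mutants against the wild type were smaller against oga-1 mutants: mev-1 differed by 0.30 and atp-3 by -0.03, neither called.

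**Figure D4:**
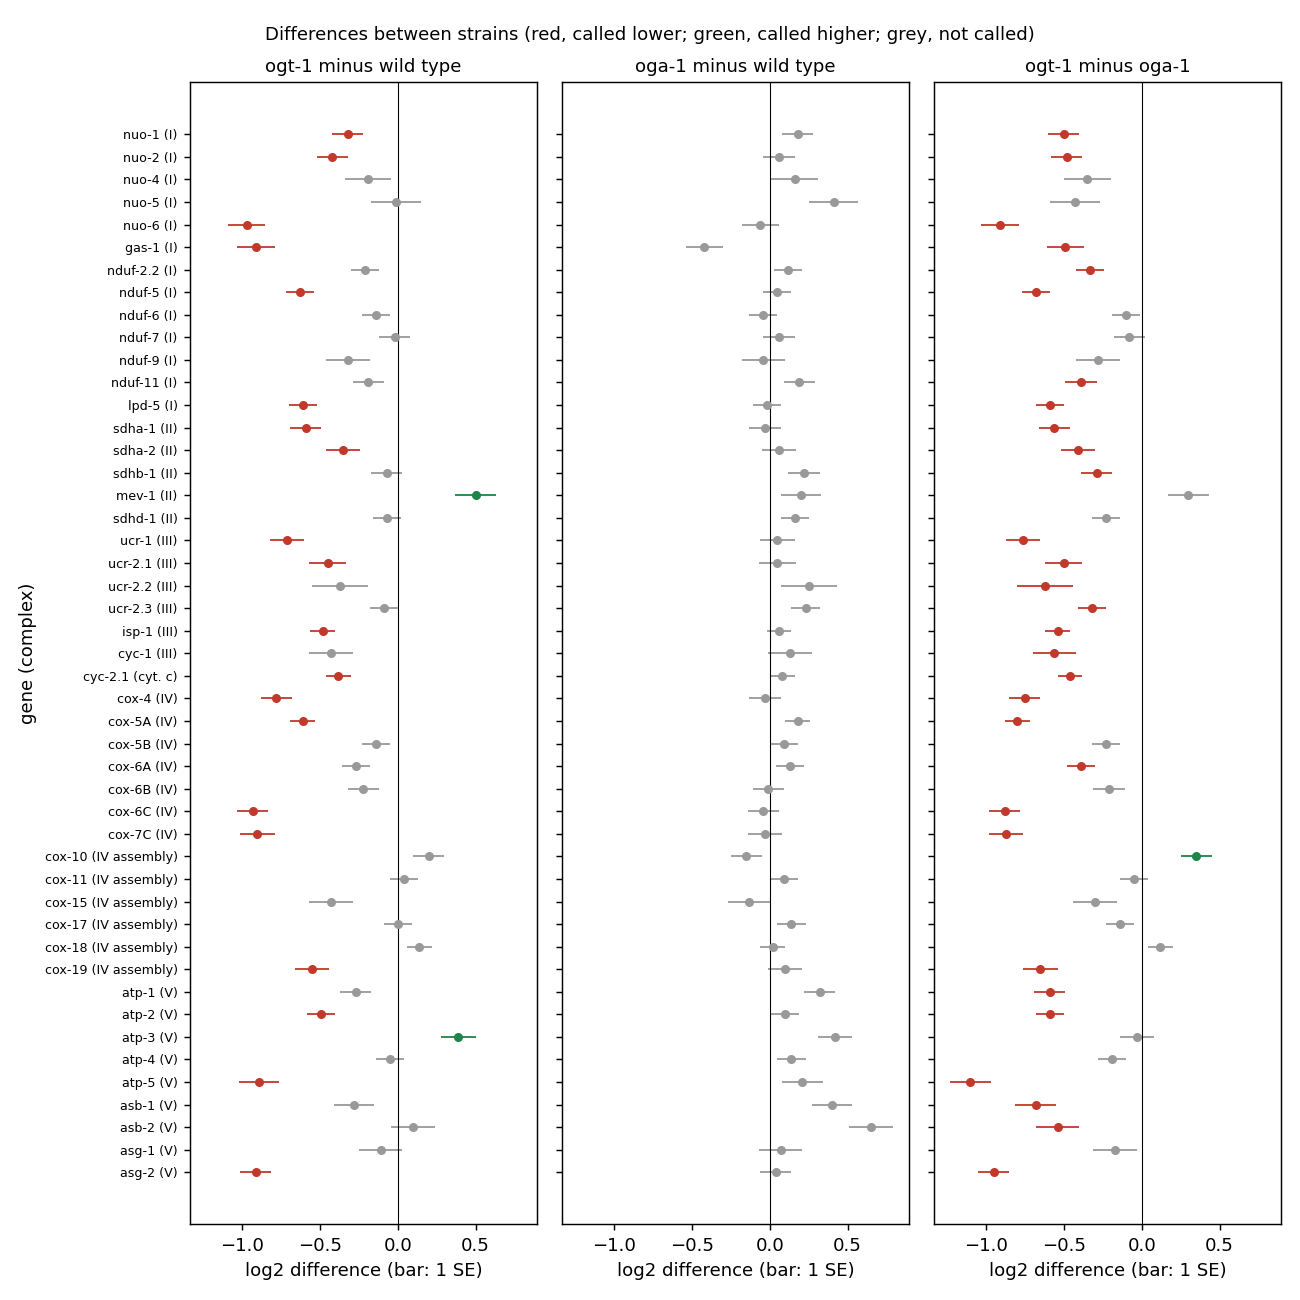
Log2 differences of the 47 genes for ogt-1 minus wild type, oga-1 minus wild type and ogt-1 minus oga-1, with bars of 1 standard error from the limma fit (3 arrays per strain). Red points were called lower (20, 0 and 30 genes), green points higher (2, 0 and 1) and grey points were not called.

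Genes that work beside the chain were counted from lists. Over the array, 9.15% of all probe sets and 24.7% of the top quartile were called lower in ogt-1 mutants. Among 8 measured partners outside the symbol rule, 3 fell in ogt-1 mutants. The first was hpo-18, the epsilon subunit of the ATP synthase (-0.69, limma adjusted p = 4.8e-04). The others were mai-1, of the family of ATPase inhibitors (-0.64, limma adjusted p = 0.0023), and bcs-1, a factor that places the Rieske protein (-0.43, limma adjusted p = 0.032). The related gene mai-2 differed by -0.16 and was not called (limma adjusted p = 0.39). The 1 that rose was cyc-2.2. Of 7 measured genes of ubiquinone synthesis, whose product carries electrons to complex III, only coq-2 fell (-0.55, limma adjusted p = 0.032). The long-life gene clk-1 read 6.69, 6.92 and 6.67 in the wild type, 6.44, 6.48 and 6.52 in ogt-1 mutants and 6.78, 6.55 and 6.52 in oga-1 mutants, and its difference of -0.28 was not called (limma adjusted p = 0.091).

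The citric acid cycle, which supplies NADH and succinate to the chain, was called lower in 8 of 16 genes in ogt-1 mutants and higher in 0, with a median of -0.42. Its falls were led by sucl-1, a succinyl-CoA ligase subunit (-0.85, limma adjusted p = 8.0e-04), and idh-2, an isocitrate dehydrogenase (-0.78, limma adjusted p = 0.0012). Mitochondrial protein import fell in 6 of 13, led by tin-10, a small carrier of the intermembrane space (-0.99, limma adjusted p = 4.8e-05), and timm-23, a channel of the inner membrane (-0.63, limma adjusted p = 0.0010). In oga-1 mutants tin-10 was the 1 gene called among all lists, at -0.66 (limma adjusted p = 0.020). Its arrays read 9.54, 9.32 and 9.26 in the wild type, 8.41, 8.33 and 8.40 in ogt-1 mutants and 8.69, 8.63 and 8.82 in oga-1 mutants, with no overlap between strains.

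No gene of mitochondrial stress and repair was called higher. In ogt-1 mutants 8.1% of all probe sets and 18.5% of the top quartile were. Of 14 chaperones, proteases and regulators of the mitochondrial unfolded protein response, 3 fell in ogt-1 mutants and 0 rose, with a median of -0.17. These falls were 21.4% of the list, where 9.15% of all probe sets and 24.7% of the top quartile were called lower. The chaperonin hsp-60, a usual reporter of that response, fell by 0.42 (limma adjusted p = 0.018), the prohibitin phb-1 by 0.85 (limma adjusted p = 8.9e-04) and the protease lonp-1 by 0.68 (limma adjusted p = 0.0025). The chaperone hsp-6 differed by -0.39 and was not called (limma adjusted p = 0.096). In the list of antioxidant enzymes 1 of 6 fell, the mitochondrial peroxiredoxin prdx-3 (-0.64, limma adjusted p = 4.2e-04), and among 7 carriers and channels 1 fell, the outer membrane channel vdac-1 (-0.69, limma adjusted p = 3.8e-04). The shares of these lists called lower, 16.7% and 14.3%, also lay below that of the top quartile.

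Ribosomal proteins gave a scale for these shares. Mitochondrial ribosomal proteins fell in 13 of 59 genes in ogt-1 mutants, with a median of -0.20, and cytosolic ribosomal proteins fell in 32 of 75 and rose in 1, with a median of -0.24. The shares called lower were 42.6% of the respiratory chain and 42.7% of the cytosolic ribosome, which lie close together. Mean signals ran from 4.81 to 12.24 in the respiratory chain and from 5.93 to 14.21 in the cytosolic ribosome. Those of the mitochondrial ribosome ran from 4.33 to 9.66, and the lists were not matched for signal. Whether the median of -0.32 differs from those of the other lists was not tested.

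**Figure D5:**
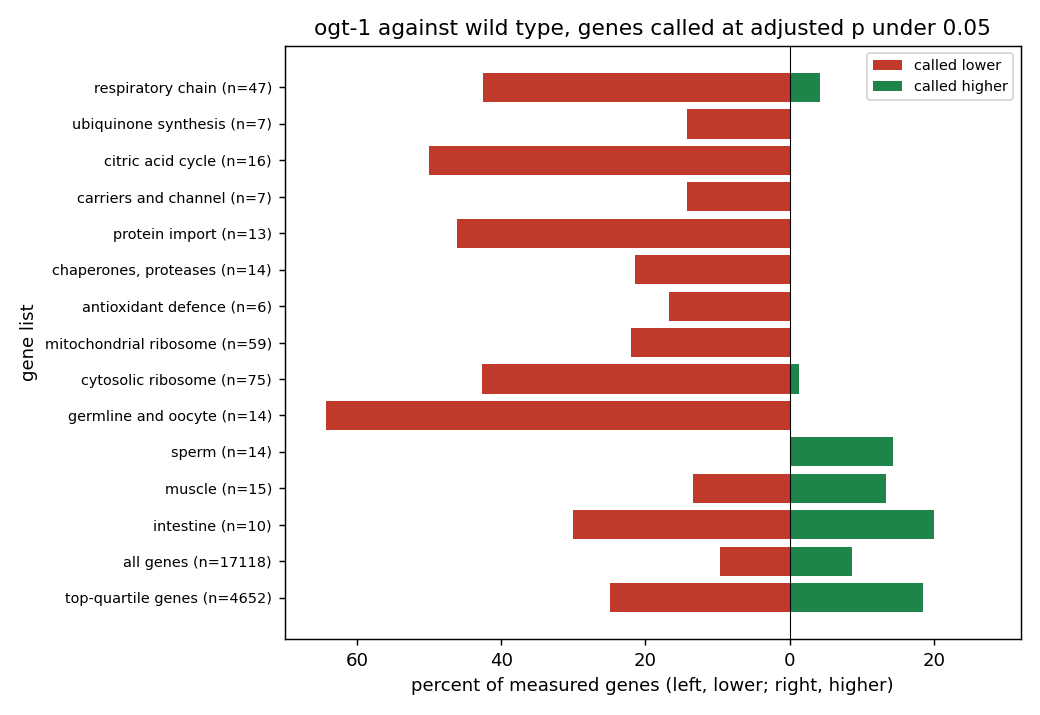
Percent of measured genes called lower (left of 0, red) and higher (right of 0, green) in ogt-1 mutants against the wild type, for the respiratory chain, other mitochondrial lists, ribosomal proteins, tissue markers and the reference sets (n, genes). The respiratory chain (42.6% lower) stands beside the cytosolic ribosome (42.7%) and above the mitochondrial ribosome (22%), while sperm markers had none called lower. Shares were higher for germline and oocyte markers (64.3%), the citric acid cycle (50%) and protein import (46.2%). The lists were not matched for signal.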

How the data were processed

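Per the labels, cDNA from 20 animals went through 1 round of T7 amplification before biotin labelling for Affymetrix arrays. The authors deposited log2 probe set signals for 22625 probe sets on 9 arrays; per the submitters' processing notes MAS5, RMA and Partek were used, with no role given. The sources used here do not say which of them scaled the values. Control probe sets (77) were left out, which leaves 22548 with no filter on signal. Depth has no meaning for arrays; their number limits the precision, and the labels call the replicates biological without describing separate cultures, so p-values measure the spread between these samples, which may be partly technical.

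Symbols came from the platform annotation, updated by gene identifier. Of the 47 genes, 16 had several probe sets, and the one with the highest mean signal stood for the gene. The list of these genes, the other lists and the tests were chosen with earlier results of these data known. Values on each array are given for called genes among the 4 smallest p of a complex, for genes called higher, for paralogs and for gas-1, nuo-6, isp-1, mev-1, clk-1 and atp-2. Up to 2 genes per direction of each other list were to be named, and bcs-1, mai-2, hsp-60 and hsp-6 were added after their values were seen. No coordinates or sequences are given.

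One linear model per probe set was fitted (limma 3.58.1, R 4.3.3; strain as the only term, all 9 arrays, 6 residual degrees of freedom), with Benjamini-Hochberg adjustment within each of 3 comparisons, two-sided. The fit was tested on simulated data. Paralog ratios and controls were compared by exact permutation. The labels do not say whether arrays of the same replicate number belong together. Over the 9 same-numbered pairs the correlation of deviations ran from -0.173 to 0.244, which cannot decide it with 3 arrays per strain. Alternatives were other scalings, filters, variance models, thresholds and probe sets, leaving out arrays, and the replicate number as a block. Cyclic loess, leaving out 3 arrays, array SD or the actin control as covariates, and the second gas-1 probe set in its paralog ratio were chosen after seeing the data.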

Additional observations from a re-analysis of the deposited data

How the results depend on the processing

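The 20 falls in ogt-1 mutants against the wild type became 12 when a 1.5-fold change was required and 1 with the actin 3' minus 5' signal as a covariate. The 2 rises became 1 with an intensity trend and robust variance, and 0 at 1.5-fold, with the actin covariate, and without the 3 arrays of SD above 1.8. The median of -0.32 was -0.37 after quantile normalization, -0.18 after cyclic loess and -0.38 with the actin covariate. Against oga-1 mutants, the 30 falls became 15 at 1.5-fold, 17 after cyclic loess and 13 without those 3 arrays, where the lone oga-1 array left is taken to have the spread of the other strains. The 1 rise became 2 after quantile normalization or cyclic loess, with the array SD as a covariate or by the second probe set. It became 0 with the actin covariate and at 1.5-fold. Filters at the median of signal or at its top quartile, and keeping subunits alone, took out the probe set of cox-10, the gene that rose. The 0 rises under those settings were therefore fixed in advance and do not retest the call. The median of -0.46 was -0.38 after quantile normalization, -0.22 after cyclic loess and -0.38 without the 3 arrays. In oga-1 mutants against the wild type, the 0 rises became 2 with array weights and 1 at an adjusted p under 0.1, and the median of 0.09 was 0.01 after quantile normalization, 0.01 after cyclic loess and 0.02 without the 3 arrays. By the second probe set nduf-7 reversed to 0.33 against the wild type and 0.38 against oga-1 mutants, and sdha-1 to 0.05. The causes were not tested.

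Leaving out 1 array gave 16 to 22 falls, 0 to 2 rises and medians of -0.35 to -0.26 for ogt-1 against the wild type. For ogt-1 against oga-1 it gave 22 to 32 falls, 0 to 2 rises and medians of -0.51 to -0.39. For oga-1 against the wild type it gave 0 to 1 rises, 0 falls and medians of 0.06 to 0.14. Of the 22 calls against the wild type 16 remained without any 1 array, and 22 of the 31 calls between the mutants did. With the replicate number as a block, 21 genes fell and 2 rose against the wild type, 30 fell and 1 rose against oga-1 mutants, and 0 were called in oga-1 mutants; 3 of 9 arrays correlated best with an array of their own number.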
